A study of Homo sapiens with 8 samples.

Results

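The genes described are 50 regulators of chromatin and DNA methylation, chosen by name: 6 DNA methyltransferases and TET dioxygenases, 15 Polycomb genes, 12 deacetylases, 9 histone demethylases and methyltransferases, and 8 remodellers and acetyltransferases. They are 50 of 52719 genes with a summed level in the table, and 49 of them passed the filter of a mean of 1 TPM that left 17077 genes for testing. The cells were SH-SY5Y, a human neuroblastoma line with a sympathetic neuronal character, used as a cell model of neurons. Replicates 21 to 24 were 4 libraries of cells given 9-cis retinoic acid at 1 µM over 7 days to differentiate them. Replicates 17 to 20 were 4 libraries of undifferentiated cells. This retinoid binds both the RAR and the RXR families of nuclear receptors. Both groups grew in the same medium with foetal calf serum. No vehicle or time in culture is recorded for the undifferentiated cells, so time in culture and solvent cannot be told apart from the retinoid. Nothing in the labels says whether the 4 libraries of a group came from separate cultures. All p-values therefore rest on the variation among libraries, part or all of which may be technical.

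DNA methyltransferases place methyl groups on cytosine and TET enzymes oxidise them, while Polycomb complexes, deacetylases, demethylases and their opposing enzymes write and erase marks on histones that silence or open genes. Remodellers of the SWI/SNF family use ATP to move nucleosomes, and in the developing nervous system they exchange subunits when progenitors leave the cell cycle and become neurons. Several of these enzymes, among them EZH2, KDM1A and the deacetylases, are studied in neuroblastoma as factors that hold cells in an undifferentiated state.

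Levels are in TPM, a share of each library's transcripts corrected for their length that sums to 1000000. TPM keeps no sequencing depth, so counting error cannot be given. Values after ± are SDs over 4 libraries unless marked SE. Fold changes are differentiated minus undifferentiated on the scale log2(TPM+1), which understates the change of low genes. A gene was called where limma's Benjamini-Hochberg adjusted p over all 17077 genes was under 0.05. The number of genes at 1 TPM or more was 16265 to 17370 per library. Pearson's r between libraries was 0.962 to 0.969 across groups, 0.981 to 0.988 within the differentiated group and 0.988 within the undifferentiated group. Of 14 markers of neuroblastoma and sympathetic neurons, 1 rose and 11 fell, and their summed level was 1849.9 to 2116 TPM in the differentiated libraries, against 2947 to 3073 TPM in the undifferentiated libraries. Of all 17077 tested genes, 33.9% were called higher and 17.4% lower. CHGA, a secretory granule protein, NPY, a neuropeptide, DBH, which makes noradrenaline, and ISL1, a transcription factor, fell by 2.96, 2.81, 2.35 and 1.91 on the log2 scale. Markers of other cell types also moved: in differentiated against undifferentiated libraries, 6 of 8 tested fibroblast and mesenchymal genes rose (1305 to 1413 TPM against 387 to 423 TPM in sum). COL3A1, FN1, COL1A1 and VIM were higher by 3.40, 2.11, 1.47 and 1.45 on the log2 scale. In the same order, epithelial genes summed to 15.1 to 19.9 TPM against 3.99 to 4.83 TPM, with KRT18 and KRT8 called higher of 4 tested. Schwann cell genes summed to 14.96 to 18.6 TPM against 6.50 to 8.61 TPM, with S100B called higher of 3 tested, and blood cell genes to 20.5 to 24.0 TPM against 1.15 to 1.54 TPM, with CD68 higher and the only one tested. Defining markers of those lineages were at or near 0 in every library. SOX10 and FOXD3 of Schwann cells and CD3E and HBB of blood cells were listed at 0, and PRRX1 of mesenchyme was under 0.1 TPM. KRT19 and CDH1 of epithelia and the 4 endothelial genes with a value were under 1 TPM. What part the cell types and states behind these markers had in the results was not tested, and in bulk RNA fewer cells of a type and less RNA per cell cannot be told apart.

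Differentiated replicate 22 stood apart from the other differentiated libraries, most often among long transcripts, and many of the regulators have long transcripts. It was the lowest of the 4 differentiated libraries in 36 of the 49 tested regulators (73.5%), against 54.7% of all tested genes. Among the 18 regulators with an abundance-weighted transcript length of 4000 bases or more it was the lowest in all 18, against 85.0% of the 2667 tested genes of that length. The median deviation from the other 3 libraries was -0.41 for those regulators and -0.31 for those genes (log2). Among the 9 regulators of 1000 to 2000 bases it was the lowest in 4, with a median deviation of -0.01. It was the lowest in 9 of 12 regulators of 2000 to 3000 bases and in 5 of 10 of 3000 to 4000 bases, against 55.7% and 71.0% of all genes of those lengths. Genes under 1000 bases had a median deviation of -0.15, and 3 shorter regulators, KDM6B, EZH1 and DNMT3A, deviated by -0.79, -0.75 and -0.72. The deviation was deepest for the deacetylase HDAC4, the acetyltransferase CREBBP and the methyltransferase KMT2A, and values without replicate 22 are given for called or named genes where leaving it out changed a call, turned the sign or moved the value by over 1.5 times. What set replicate 22 apart was not tested.

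**Figure D1:**
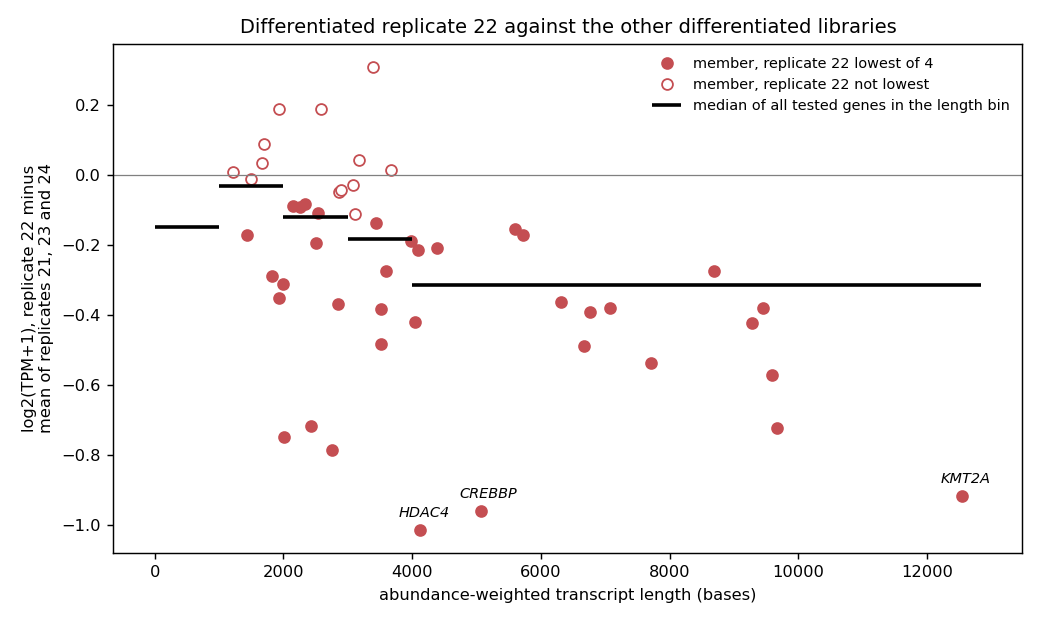
Difference in log2(TPM+1) between differentiated replicate 22 and the mean of differentiated replicates 21, 23 and 24 (y axis) against abundance-weighted transcript length in bases (x axis) for the 49 tested regulators, filled where replicate 22 was the lowest of the 4; black bars give the median of all tested genes in each length bin. All 18 regulators at 4000 bases or more lie below 0, with HDAC4, CREBBP and KMT2A the lowest.

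Of the 49 tested regulators, 11 were higher and 12 were lower in differentiated cells, and 26 were not called. That is 46.9% called, beside 51.3% of all tested genes (33.9% higher, 17.4% lower), so the share called among the regulators was near that of the transcriptome. The median log2 fold change was -0.03 over the regulators and 0.10 over all tested genes. Changes were mostly small: 10 regulators (20.4%) were called with a log2 fold change of 0.5 or more in size, beside 29.9% of all tested genes, and 2, HDAC10 and SMARCA2, with 1 or more, beside 11.4%. The groups did not overlap in 26 regulators, 11 higher and 15 lower, beside 49.6% of all tested genes. The 12 regulators called in each of the alternative analyses in which they were tested were RBBP7, HDAC7, HDAC10, HDAC11 and SMARCA2, which were higher, and DNMT3B, TET1, RBBP4, CBX2, HDAC2, HDAC9 and KDM1A, which were lower. The balance depends on scaling. Median-of-ratios scaling, which divides each library by 1 factor from its typical gene, put the median of all genes at -0.02 in place of 0.10 and gave 10 higher and 20 lower. Quantile normalization, which gives every library the same distribution, put it at -0.07 and gave 7 higher and 24 lower. Over all genes the share of calls that were higher was 66.1% in TPM as deposited, 50.95% after median-of-ratios scaling and 45.01% after quantile normalization.

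**Figure D2:**
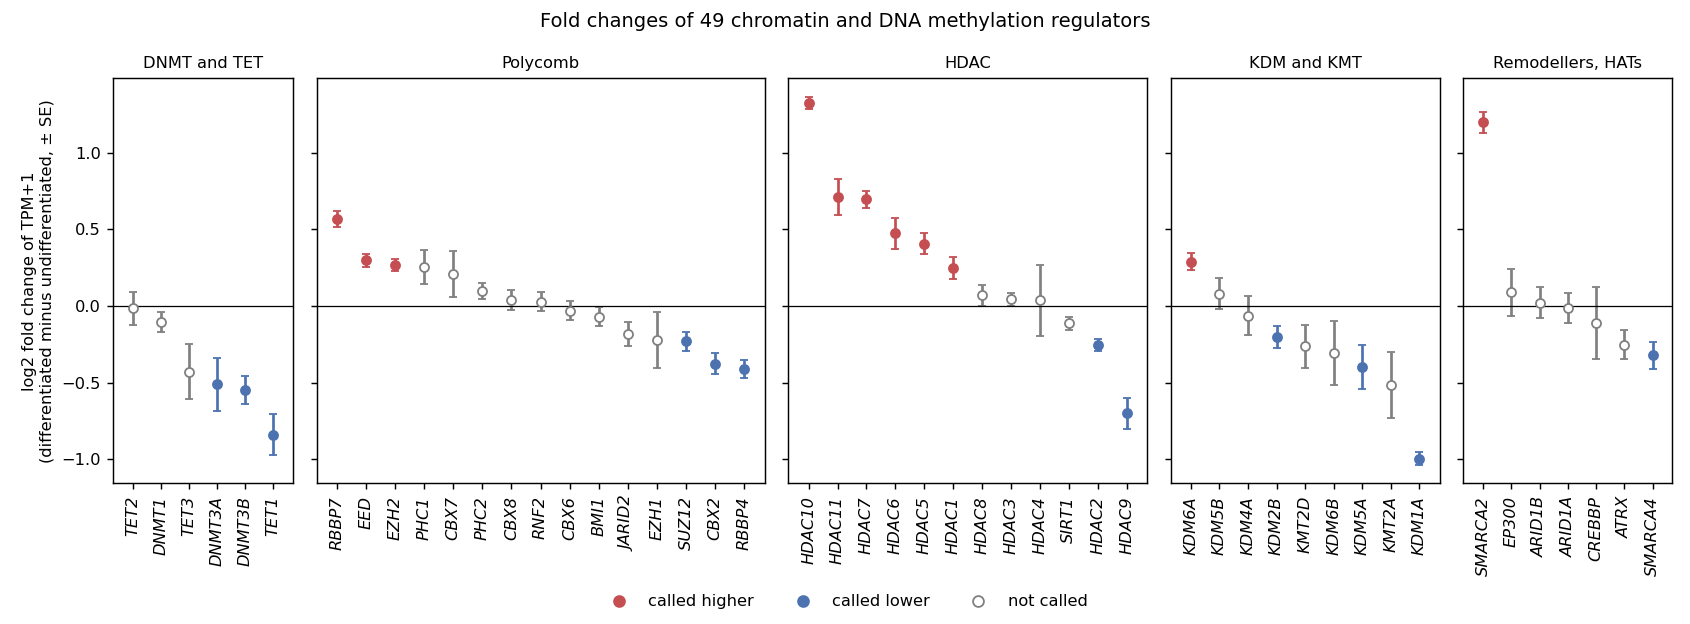
Log2 fold change of TPM+1, differentiated minus undifferentiated, with SE (y axis, limma fit on 4 libraries per group) for the 49 tested regulators in 5 families (panels); filled red points were called higher, filled blue points called lower and open points not called. The changes run from 1.32 for HDAC10 to -0.99 for KDM1A.

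Of the DNA methylation enzymes, TET1, DNMT3B and DNMT3A fell in differentiated cells. Of 6 genes, 0 rose, 3 fell and 3 were not called, beside 33.9% higher and 17.4% lower of all tested genes. The number lower in the family was 6 after quantile normalization and 1 of the 4 tested with a filter at a mean of 5 TPM. The family's median log2 fold change was -0.47, and it was negative under both other scalings. TET1, a dioxygenase that starts the removal of DNA methylation, had 2.79, 1.56, 2.03 and 2.53 TPM in differentiated replicates 21 to 24, against 4.24, 5.08, 4.61 and 4.96 TPM in undifferentiated replicates 17 to 20. All 4 differentiated libraries lay below all undifferentiated ones, at 0.472 times the undifferentiated mean (log2 fold change -0.84 ± 0.13 (SE), limma adjusted p = 0.000929). DNMT3B, a de novo methyltransferase abundant in early embryonic cells, had 3.84, 3.03, 3.30 and 3.93 TPM in differentiated libraries, against 5.36, 5.31, 6.04 and 5.66 TPM in undifferentiated ones. The groups did not overlap here either (log2 fold change -0.55 ± 0.09 (SE), limma adjusted p = 0.00112). DNMT3A, the de novo methyltransferase that predominates in the brain after birth, had 65.1, 33.8, 51.2 and 53.5 TPM in differentiated libraries, against 71.9, 72.8, 68.3 and 71.4 TPM in undifferentiated ones. Its undifferentiated libraries were close together and its differentiated libraries spread widely below them, with replicate 22 lowest (log2 fold change -0.51 ± 0.17 (SE), limma adjusted p = 0.0355). That call was lost in 8 of 16 alternatives. These were the lane 8 libraries alone, which leaves out undifferentiated replicates 17 and 18 of lane 7, no filter, and the fits without differentiated replicate 23 or 24 or any 1 undifferentiated replicate. Over the alternatives the limma adjusted p ran from 0.000773 to 0.174, and without replicate 22 the log2 fold change was -0.33.

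DNMT1, which copies methylation onto newly replicated DNA, had 88.4, 93.6, 79.0 and 79.2 TPM in differentiated libraries, against 96.4, 86.3, 90.3 and 92.8 TPM in undifferentiated ones. The groups overlapped and the gene was not called (log2 fold change -0.11 ± 0.07 (SE), limma adjusted p = 0.215). It was called lower under quantile normalization and without replicate 22, at -0.21 and -0.15 on the log2 scale (limma adjusted p from 0.0407 to 0.434 over 16 alternatives). TET3 had 15.6, 8.04, 11.6 and 14.8 TPM in differentiated libraries, against 17.7, 16.7, 15.9 and 16.4 TPM in undifferentiated ones. Each differentiated library was below each undifferentiated one, yet the differentiated spread was wide and the gene was not called (log2 fold change -0.43 ± 0.18 (SE), limma adjusted p = 0.0796). The same fit without differentiated replicate 21 and both other scalings called it lower (limma adjusted p from 0.00411 to 0.293 over 16 alternatives). Without replicate 22 the log2 fold change was -0.25. TET2 had 9.15, 6.03, 7.59 and 7.77 TPM in differentiated libraries, against 7.52, 7.34, 8.09 and 7.66 TPM in undifferentiated ones, and its groups overlapped (log2 fold change -0.01 ± 0.11 (SE), limma adjusted p = 0.927; 0.08 without replicate 22). Of the 3 TET genes, TET1 was the lowest and TET3 the highest in mean TPM in both groups.

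Among 14 tested partners in DNA methylation (readers, repair factors and enzymes that supply or block TET activity), 4 rose and 3 fell. The shares over all tested genes were 33.9% and 17.4%. The partners' median log2 fold change was 0.11 and turned negative under both other scalings. GADD45A, a stress protein linked to DNA demethylation, averaged 15.6 ± 1.36 TPM in differentiated and 7.98 ± 0.403 TPM in undifferentiated cells (log2 fold change 0.88, limma adjusted p = 1.97e-05). The isocitrate dehydrogenases, which make the 2-oxoglutarate that TET and many demethylases use, moved in opposite directions. Cytosolic IDH1 averaged 115 ± 5.12 TPM in differentiated and 62.7 ± 3.25 TPM in undifferentiated cells (log2 fold change 0.87, limma adjusted p = 3.05e-06). Mitochondrial IDH2 averaged 35.7 ± 2.98 TPM in differentiated and 64.0 ± 0.830 TPM in undifferentiated cells (log2 fold change -0.83, limma adjusted p = 9.79e-06). ZBTB33, a reader of methylated DNA, fell (log2 fold change -0.39, limma adjusted p = 0.000984). Proliferation genes mostly fell: of 24 genes of S phase and mitosis, 0 rose and 21 fell, beside 33.9% and 17.4% of all tested genes. The median change of the 24 was -0.51 (log2). The mitotic genes CENPF, CCNB2, AURKA and CCNB1 fell by 1.21, 1.21, 1.03 and 1.00. Their summed level was 2074 to 2128 TPM in the differentiated libraries, against 2942 to 3023 TPM in the undifferentiated libraries. Several regulators here, DNMT1, EZH2 and RBBP4 among them, are known to follow the cell cycle, and the part of proliferation in their values was not tested.

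Of the Polycomb genes, RBBP7, EZH2 and EED rose, and RBBP4, SUZ12 and CBX2 fell. Of 15 genes, 3 rose, 3 fell and 9 were not called, beside 33.9% higher and 17.4% lower of all tested genes. Median-of-ratios scaling gave 2 higher and 6 lower, quantile normalization 2 and 7, and the fit without differentiated replicate 21 gave 3 and 5. The median log2 fold change was 0.03, and it became -0.10 after median-of-ratios scaling and -0.15 after quantile normalization. The clearest pair was RBBP7 and RBBP4, closely related histone-binding proteins of Polycomb repressive complex PRC2 and of deacetylase complexes. RBBP7 had 153, 179, 161 and 158 TPM in differentiated libraries, against 107, 109.7, 111 and 108 TPM in undifferentiated ones. All differentiated libraries were higher, at 1.49 times the undifferentiated mean (log2 fold change 0.57 ± 0.05 (SE), limma adjusted p = 3.65e-05). RBBP4 had 211, 179, 193 and 211 TPM in differentiated libraries, against 259, 265, 263 and 267 TPM in undifferentiated ones. Here all differentiated libraries were lower (log2 fold change -0.41 ± 0.06 (SE), limma adjusted p = 0.000426). The opposite-strand gene TXLNG, which overlaps RBBP7, averaged 18.3 TPM in differentiated cells and 23.2 TPM in undifferentiated cells.

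EZH2, the methyltransferase of PRC2 in dividing cells, had 122, 115, 118 and 123 TPM in differentiated libraries, against 102, 95.6, 98.8 and 99.3 TPM in undifferentiated ones. All differentiated libraries were higher (log2 fold change 0.27 ± 0.04 (SE), limma adjusted p = 0.000573), a direction opposite to that of the S phase and mitosis genes. With only protein-coding transcripts summed, its log2 fold change was 0.11 and the call was lost (adjusted p from 0.000244 to 0.0706 over 16 alternatives, limma). EZH1, the related methyltransferase of non-dividing cells, had 28.0, 15.1, 23.2 and 27.1 TPM in differentiated libraries, against 29.5, 27.8, 23.2 and 26.6 TPM in undifferentiated ones. Its groups overlapped, with replicate 22 far below the other libraries (log2 fold change -0.22 ± 0.18 (SE), limma adjusted p = 0.347). Without it the log2 fold change was -0.04. Of the core PRC2 partners, EED averaged 43.9 ± 1.52 TPM in differentiated and 35.5 ± 0.748 TPM in undifferentiated cells (log2 fold change 0.30 ± 0.04 (SE), limma adjusted p = 0.000424), a call lost under both other scalings, at 0.17 and 0.16. SUZ12 averaged 42.9 ± 3.56 TPM in differentiated and 50.4 ± 0.688 TPM in undifferentiated cells (log2 fold change -0.23 ± 0.06 (SE), limma adjusted p = 0.0131) and was not called in the lane 8 libraries alone. SUZ12 shares sequence with its copy SUZ12P1, listed at 49.5 ± 5.54 TPM in differentiated cells and 46.8 ± 3.17 TPM in undifferentiated cells. The division of reads between them is uncertain. JARID2, which guides PRC2 to its targets, averaged 8.80 ± 1.00 TPM in differentiated and 10.1 ± 0.158 TPM in undifferentiated cells and was not called (log2 fold change -0.18 ± 0.08 (SE), limma adjusted p = 0.0876). It was called lower under both other scalings and without differentiated replicate 21.

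In the PRC1 complexes, which bind and compact chromatin that PRC2 has marked, CBX2 was the single gene called. CBX2, a chromobox subunit common in dividing and embryonic cells, averaged 40.4 ± 4.002 TPM in differentiated and 52.5 ± 0.263 TPM in undifferentiated cells, and its libraries did not overlap (log2 fold change -0.37 ± 0.07 (SE), limma adjusted p = 0.00231). CBX6, CBX7 and CBX8, the other chromobox members here, averaged 8.90, 1.94 and 13.5 TPM in differentiated cells and 9.10, 1.54 and 13.1 TPM in undifferentiated cells and overlapped. Their log2 fold changes were -0.03, 0.21 and 0.04, and CBX8 became -0.15 and called after quantile normalization. CBX6 was called lower under both other scalings, at -0.15 (median-of-ratios) and -0.26 (quantile). CBX7 was called higher at 0.32 with only protein-coding transcripts summed. Without replicate 22 the log2 fold changes were 0.01 for CBX6 and 0.07 for CBX8. RNF2, the ubiquitin ligase of PRC1, averaged 25.1 ± 1.99 TPM in differentiated and 24.6 ± 0.631 TPM in undifferentiated cells (log2 fold change 0.03), and its partner BMI1 averaged 104 ± 9.22 TPM in differentiated and 109 ± 1.09 TPM in undifferentiated cells (log2 fold change -0.07). Without replicate 22 these were 0.06 and -0.04. BMI1 was called lower under both other scalings and without differentiated replicate 21. BMI1 shares its exons with the read-through gene COMMD3-BMI1, listed at 28.0 ± 3.72 TPM in differentiated cells and 28.95 ± 1.48 TPM in undifferentiated cells. PHC1 and PHC2, which let PRC1 complexes cluster, had log2 fold changes of 0.25 and 0.10 with overlapping groups. Without replicate 22, PHC1 reached 0.36 and was called higher (limma adjusted p from 0.00234 to 0.228 over 16 alternatives). PHC1 was also called higher at 0.29 with only protein-coding transcripts summed.

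Among 22 tested Polycomb partners outside the 15, 9 rose and 3 fell, beside 33.9% and 17.4% of all tested genes. The partners' median change was 0.12 on the log2 scale (just below 0 after median-of-ratios scaling, and -0.03 after quantile normalization). PHF1, an accessory subunit that binds methylated histone H3, averaged 47.8 ± 4.66 TPM in differentiated and 21.1 ± 1.61 TPM in undifferentiated cells (log2 fold change 1.14, limma adjusted p = 8.54e-06). Its relative PHF19 averaged 36.5 ± 5.92 TPM in differentiated and 59.3 ± 3.04 TPM in undifferentiated cells (log2 fold change -0.70, limma adjusted p = 0.000898). RING1, the paralog of RNF2, averaged 63.9 ± 4.27 TPM in differentiated and 32.1 ± 0.478 TPM in undifferentiated cells (log2 fold change 0.97, limma adjusted p = 1.84e-06). PCGF1, the BMI1 relative of a variant PRC1 complex, rose as well (log2 fold change 0.66, limma adjusted p = 0.000386).

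Among the deacetylases, HDAC10, HDAC11, HDAC7, HDAC5, HDAC6 and HDAC1 rose, and HDAC9 and HDAC2 fell. Of 12 genes, 6 rose, 2 fell and 4 were not called, beside 33.9% higher and 17.4% lower of all tested genes. Median-of-ratios scaling gave 6 higher and 3 lower, and quantile normalization 4 and 3. The median log2 fold change was 0.16 (0.03 after median-of-ratios scaling and 0.04 after quantile normalization). HDAC10, a class IIb enzyme that deacetylates polyamines, lies at chr22:50245183-50251405 on the minus strand (GRCh38) and rose by more than any other regulator. It had 66.4, 64.9, 63.4 and 64.1 TPM in differentiated replicates 21 to 24, against 26.3, 25.1, 24.3 and 25.4 TPM in undifferentiated replicates 17 to 20. Every differentiated library exceeded every undifferentiated one by a wide margin, at 2.56 times the undifferentiated mean (log2 fold change 1.32 ± 0.04 (SE), limma adjusted p = 7.61e-08). Most of that level was not in coding transcripts. Retained-intron transcripts averaged 46.8 ± 1.90 TPM in differentiated and 19.9 ± 1.02 TPM in undifferentiated cells, and coding transcripts 5.91 ± 0.345 TPM in differentiated and 1.63 ± 0.317 TPM in undifferentiated cells. The coding class was 3.63 times its undifferentiated mean and the retained-intron class 2.35 times. The coding share of the gene was 9.14% ± 0.491 in differentiated cells and 6.44% ± 1.13 in undifferentiated cells. MAPK12, a kinase gene that overlaps HDAC10 on the same strand, averaged 67.5 ± 5.31 TPM in differentiated cells and 24.1 ± 1.31 TPM in undifferentiated cells (log2 fold change 1.45, limma adjusted p = 7.49e-07). Both genes rose, and reads from where they overlap cannot be told apart.

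The promoter window of HDAC10 is printed because the gene had the largest change of the regulators. It runs from 250 bases before to 50 bases after the RefSeq start (chr22:50251216-50251515, minus strand, GRCh38.p14). Capitals mark the GC box, GGGCGG or its reverse complement CCGCCC, of which it holds 4, beside 40 CG dinucleotides.
HDAC10: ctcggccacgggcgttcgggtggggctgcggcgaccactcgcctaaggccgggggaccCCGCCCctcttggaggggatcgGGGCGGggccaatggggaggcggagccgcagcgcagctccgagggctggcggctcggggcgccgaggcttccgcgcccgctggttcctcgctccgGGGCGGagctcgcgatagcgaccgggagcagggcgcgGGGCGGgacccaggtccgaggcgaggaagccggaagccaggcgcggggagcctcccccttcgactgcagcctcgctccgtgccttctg
A match is a description of letters, not a binding site. Of the 50 regulators, 45 had a RefSeq promoter window, and 30 of these (66.7%) held a GC box on either strand, against 44.6% of 27305 promoters of the same length. The median number of CG dinucleotides was 30 in the regulators and 14 in all promoters. A retinoid receptor half-site, AGGTCA, was found in 2 of 45 (4.44%; HDAC9 and KDM6A), against 13.9% of all promoters. The variant AGTTCA was found in 4 (8.89%), against 10.5%. An E2F-type motif (TTTCCCGC, TTTCGCGC, TTTGCCGC or TTTGGCGC, either strand) was found in 4 regulators (8.89%; EZH2, SUZ12, EZH1 and DNMT1), against 3.33% of all promoters. Every motif was searched on both strands and on its own, so matches of different motifs may overlap.

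HDAC7, a class IIa deacetylase that acts through MEF2 transcription factors, had 37.2, 36.02, 39.1 and 34.2 TPM in differentiated libraries, against 22.6, 21.1, 23.6 and 21.7 TPM in undifferentiated ones. All differentiated libraries were higher, at 1.65 times the undifferentiated mean (log2 fold change 0.70 ± 0.06 (SE), limma adjusted p = 1.94e-05). The opposite-strand gene SLC48A1, which overlaps it, also rose (log2 fold change 0.60, limma adjusted p = 0.000776). HDAC9, another class IIa member, had 52.9, 36.9, 43.6 and 49.3 TPM in differentiated libraries, against 73.7, 75.0, 74.6 and 73.1 TPM in undifferentiated ones. It moved the opposite way, with all differentiated libraries lower and the differentiated libraries more spread (log2 fold change -0.70 ± 0.10 (SE), limma adjusted p = 0.000534). HDAC5 averaged 13.1 ± 0.860 TPM in differentiated and 9.61 ± 0.662 TPM in undifferentiated cells (log2 fold change 0.41 ± 0.07 (SE), limma adjusted p = 0.00148), a call lost after quantile normalization at 0.20. HDAC4, the fourth class IIa gene, averaged 8.92 ± 2.90 TPM in differentiated and 8.30 ± 0.851 TPM in undifferentiated cells and was not called (log2 fold change 0.04 ± 0.23 (SE), limma adjusted p = 0.911). Replicate 22 lay far below the other HDAC4 values at 4.62 TPM, and without it the log2 fold change was 0.29 and the gene was called higher (limma adjusted p from 0.0188 to 0.989 over 16 alternatives). The 4 class IIa genes thus included 2 that rose, 1 that fell and 1 that was not called.

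HDAC11, the single class IV member, which removes fatty acyl groups, had 6.47, 5.59, 7.29 and 7.88 TPM in differentiated libraries, against 4.20, 3.73, 3.91 and 3.17 TPM in undifferentiated ones. The groups did not overlap (log2 fold change 0.71 ± 0.11 (SE), limma adjusted p = 0.00101). HDAC6, the class IIb deacetylase of tubulin, averaged 52.1 ± 7.96 TPM in differentiated and 37.0 ± 1.67 TPM in undifferentiated cells (log2 fold change 0.47 ± 0.10 (SE), limma adjusted p = 0.00512). With only protein-coding transcripts summed, its log2 fold change was 0.32 and the call was lost. HDAC1 and HDAC2, close paralogs of class I that share the SIN3, NuRD and CoREST complexes, moved in opposite directions. HDAC1 had 79.4, 63.6, 75.0 and 79.5 TPM in differentiated libraries, against 61.2, 62.6, 62.8 and 61.8 TPM in undifferentiated ones. Its differentiated libraries were higher without overlap, though replicate 22 was close to the undifferentiated values (log2 fold change 0.25 ± 0.07 (SE), limma adjusted p = 0.0184). The call was lost after quantile normalization, in the lane 8 libraries alone and without differentiated replicate 24 (limma adjusted p from 0.000124 to 0.118 over 16 alternatives). HDAC2 had 276, 284, 288 and 268 TPM in differentiated libraries, against 325, 324, 342 and 342 TPM in undifferentiated ones. It was lower in every differentiated library (log2 fold change -0.26 ± 0.04 (SE), limma adjusted p = 0.000618). HDAC3 and HDAC8, the other class I enzymes, averaged 66.9 and 45.5 TPM in differentiated cells and 64.8 and 43.2 TPM in undifferentiated cells, with overlapping groups and no call (log2 fold changes 0.04 and 0.07). HDAC8 was at 0.11 without replicate 22. SIRT1, an NAD-dependent deacetylase, had 24.7, 23.9, 22.6 and 23.6 TPM in differentiated libraries, against 25.5, 26.0, 25.7 and 25.5 TPM in undifferentiated ones. The differentiated libraries lay just below the undifferentiated ones, but the change was small and not called (log2 fold change -0.11 ± 0.04 (SE), limma adjusted p = 0.0585). It was called lower under both other scalings and without differentiated replicate 21 or 22 (adjusted p from 0.00439 to 0.257 over 16 alternatives).

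Of 23 tested deacetylase partners, other sirtuins and subunits of corepressor complexes, 5 rose and 6 fell, beside 33.9% and 17.4% of all tested genes. The median log2 fold change was 0.03 and turned negative under both other scalings. RCOR2, the CoREST family member of neural progenitors and a partner of KDM1A, averaged 7.14 ± 0.679 TPM in differentiated and 24.8 ± 2.33 TPM in undifferentiated cells (log2 fold change -1.66, limma adjusted p = 1.45e-06). RCOR1 and RCOR3, the other CoREST genes, were not called (log2 fold changes 0.29 and -0.01). REST, the repressor of neuronal genes that recruits CoREST and HDAC complexes, averaged 21.1 ± 3.07 TPM in differentiated and 12.98 ± 0.367 TPM in undifferentiated cells (log2 fold change 0.65, limma adjusted p = 0.000827). SIRT3, a mitochondrial sirtuin, and SIRT7, a nucleolar one, rose by 0.79 and 0.60 on the log2 scale (limma adjusted p = 3.83e-05 and 0.000189).

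**Figure D3:**
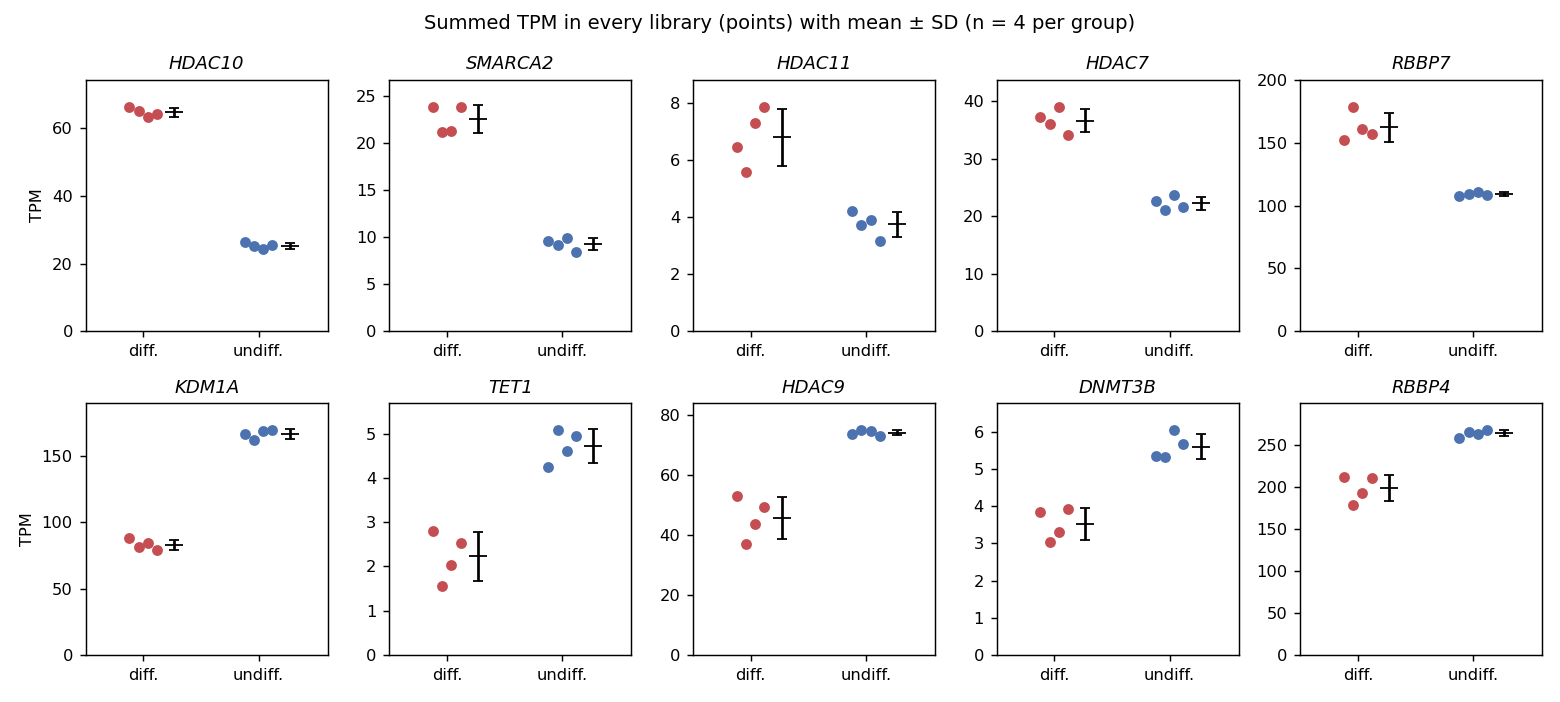
Summed TPM (y axis, from 0) of 10 regulators in each library, differentiated (red, left) and undifferentiated (blue, right), with mean and SD beside the points (n = 4 per group). HDAC10, SMARCA2, HDAC11, HDAC7 and RBBP7 are higher in every differentiated library, and KDM1A, TET1, HDAC9, DNMT3B and RBBP4 are lower.

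Among the enzymes that add or remove histone methylation, the largest change was a lower level of KDM1A. Of 9 genes, 1 rose, 3 fell and 5 were not called, beside 33.9% higher and 17.4% lower of all tested genes. The number lower was 5 after median-of-ratios scaling and without differentiated replicate 21, 6 after quantile normalization, and 1 in lane 8 alone. The median log2 fold change was -0.26, and it was negative under both other scalings. KDM1A (LSD1), at chr1:23019443-23083689 on the plus strand (GRCh38), is the demethylase of the CoREST complex. It had 87.9, 81.0, 84.5 and 79.4 TPM in differentiated replicates 21 to 24, against 166, 162, 169 and 169 TPM in undifferentiated replicates 17 to 20. Differentiated libraries held 0.499 times the undifferentiated mean, with no overlap and little spread in either group (log2 fold change -0.99 ± 0.04 (SE), limma adjusted p = 4.25e-07).

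KDM1A has a 12-base exon that is known to be spliced in mainly in neurons. Its sequence is printed with 15 flanking transcript bases on each side, the exon in capitals (GENCODE 29 transcripts, chr1:23066060-23066071, plus strand, GRCh38).
KDM1A-202 with the exon: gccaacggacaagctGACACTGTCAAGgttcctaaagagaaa
KDM1A-201 without the exon: gccaacggacaagctgttcctaaagagaaa
KDM1A-202 averaged 9.84 ± 1.01 TPM in differentiated and 17.0 ± 0.929 TPM in undifferentiated cells. KDM1A-201 averaged 53.9 ± 2.73 TPM in differentiated and 114 ± 3.06 TPM in undifferentiated cells. Both were lower in differentiated cells in mean TPM. KDM1A-202 made up 11.8% ± 1.37 of the gene's TPM in differentiated cells and 10.2% ± 0.732 in undifferentiated cells. This share was not called (limma adjusted p = 0.464). It is the estimated share of 1 annotated transcript, and reads across the exon itself were not counted. Other KDM1A transcripts were not searched for the exon, and KDM1A-201 and KDM1A-202 were not compared over the rest of their length. As a ratio of means, TET1 fell slightly further than KDM1A, to 0.472 against 0.499 times the undifferentiated mean. The promoter window of KDM1A (chr1:23019218-23019517, plus strand, GRCh38.p14, RefSeq) is shown for the regulator with the largest fall in log2(TPM+1), with its GC box in capitals.
KDM1A: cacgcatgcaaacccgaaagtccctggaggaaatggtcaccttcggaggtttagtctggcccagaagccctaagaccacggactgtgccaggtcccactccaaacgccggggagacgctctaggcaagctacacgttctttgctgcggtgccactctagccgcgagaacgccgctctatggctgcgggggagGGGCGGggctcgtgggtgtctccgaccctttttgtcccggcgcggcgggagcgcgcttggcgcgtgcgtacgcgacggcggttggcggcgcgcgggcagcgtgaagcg
It holds 36 CG dinucleotides and 1 GC box, and none of the retinoid half-site letters searched.

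KDM6A (UTX), which removes the Polycomb mark on histone H3, averaged 21.1 ± 1.30 TPM in differentiated and 17.0 ± 0.435 TPM in undifferentiated cells (log2 fold change 0.29 ± 0.06 (SE), limma adjusted p = 0.00259), and was not called after quantile normalization, at 0.11. Its relative KDM6B averaged 20.9 ± 6.48 TPM in differentiated and 25.2 ± 2.11 TPM in undifferentiated cells and overlapped between groups (log2 fold change -0.31, and -0.11 without replicate 22). KDM5A, a demethylase of active promoters, averaged 15.9 ± 3.43 TPM in differentiated and 21.0 ± 1.25 TPM in undifferentiated cells (log2 fold change -0.40 ± 0.14 (SE), limma adjusted p = 0.0450), while KDM5B averaged 44.6 ± 6.71 TPM in differentiated and 41.8 ± 0.928 TPM in undifferentiated cells and was not called (log2 fold change 0.08). Without replicate 22 these were -0.26 for KDM5A and 0.17 for KDM5B. KDM2B, which brings a variant PRC1 to unmethylated CpG islands, averaged 14.0 ± 1.15 TPM in differentiated and 16.3 ± 0.974 TPM in undifferentiated cells (log2 fold change -0.20 ± 0.07 (SE), limma adjusted p = 0.0444). The calls of KDM5A and KDM2B held in 7 of 16 alternatives each. Both were lost in the lane 8 libraries alone, without a filter, without differentiated replicate 23 or 24 and without each undifferentiated replicate in turn. KDM2B was also lost without replicate 22, and KDM5A without the intensity trend (limma adjusted p from 0.00119 to 0.116 for KDM5A and 0.000313 to 0.205 for KDM2B). KMT2A (MLL1), a methyltransferase of active promoters, had 20.3, 9.44, 16.1 and 20.1 TPM in differentiated libraries, against 25.2, 23.5, 21.7 and 22.0 TPM in undifferentiated ones. The differentiated libraries were all below the undifferentiated ones, but replicate 22 was far below the rest and the gene was not called (log2 fold change -0.52 ± 0.22 (SE), limma adjusted p = 0.0778). Without replicate 22 the log2 fold change was -0.29 and it was called lower, as it was without differentiated replicate 21 and under both other scalings (adjusted p from 0.00872 to 0.308 over 16 alternatives). KMT2D, a methyltransferase of enhancers, and KDM4A, a demethylase, had log2 fold changes of -0.26 and -0.06 with overlapping groups. Without replicate 22 they were -0.14 and 0.06.

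Of 31 tested partners in histone methylation, 3 rose and 5 fell, beside 33.9% and 17.4% of all tested genes. The partners' median change was -0.07 (log2). SUV39H2, a methyltransferase of heterochromatin, averaged 26.8 ± 2.38 TPM in differentiated and 43.1 ± 1.11 TPM in undifferentiated cells (log2 fold change -0.67, limma adjusted p = 5.82e-05). KDM7A fell as well (log2 fold change -0.62, limma adjusted p = 0.00232), while its relative PHF2 rose (log2 fold change 0.62, limma adjusted p = 7.01e-05). ASH2L, a shared subunit of the KMT2 complexes, averaged 25.4 ± 1.82 TPM in differentiated and 16.5 ± 1.77 TPM in undifferentiated cells (log2 fold change 0.60, limma adjusted p = 0.000505).

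Among the remodellers and acetyltransferases, both ATPases of the SWI/SNF complex were called, in opposite directions. Of 7 tested genes, 1 rose, 1 fell and 5 were not called, beside 33.9% higher and 17.4% lower of all tested genes. Under either other scaling 2 of the 7 were lower. The median log2 fold change was -0.01 (-0.14 after median-of-ratios scaling and -0.15 after quantile normalization). SMARCA2 (BRM) lies at chr9:1980290-2193624 on the plus strand (GRCh38). It had 23.8, 21.2, 21.2 and 23.8 TPM in differentiated replicates 21 to 24, against 9.52, 9.14, 9.90 and 8.41 TPM in undifferentiated replicates 17 to 20. It was 2.44 times the undifferentiated mean in differentiated cells, and the groups lay far apart (log2 fold change 1.20 ± 0.07 (SE), limma adjusted p = 2.73e-06). SMARCA4 (BRG1), the alternative ATPase of the same complexes, had 70.8, 83.4, 67.4 and 63.5 TPM in differentiated libraries, against 87.8, 86.8, 97.7 and 83.5 TPM in undifferentiated ones. Its differentiated libraries were lower, with replicate 22 nearly reaching the lowest undifferentiated library (log2 fold change -0.32 ± 0.09 (SE), limma adjusted p = 0.0154), and it was not called in the lane 8 libraries alone. In differentiated cells SMARCA4 was still the more abundant of the pair in TPM.

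The SMARCA2 gene makes transcripts from its 5′ end and shorter ones from an internal start near its 3′ end, which code for the C-terminal part of the protein alone. The short class averaged 15.8 ± 0.728 TPM in differentiated and 5.68 ± 0.546 TPM in undifferentiated cells, and the class from the 5′ end averaged 6.76 ± 1.36 TPM in differentiated and 3.56 ± 0.208 TPM in undifferentiated cells. The short class was 2.77 times its undifferentiated mean and the 5′ class 1.90 times. Short transcripts made up 70.1% ± 4.51 in differentiated cells and 61.4% ± 2.25 in undifferentiated cells of the gene's TPM, a description with no test. The RefSeq promoter window of SMARCA2 (chr9:2015097-2015396, plus strand, GRCh38.p14) belongs to a 5′ start and is printed because SMARCA2 had the second largest rise of the regulators. GC boxes are in capitals.
SMARCA2: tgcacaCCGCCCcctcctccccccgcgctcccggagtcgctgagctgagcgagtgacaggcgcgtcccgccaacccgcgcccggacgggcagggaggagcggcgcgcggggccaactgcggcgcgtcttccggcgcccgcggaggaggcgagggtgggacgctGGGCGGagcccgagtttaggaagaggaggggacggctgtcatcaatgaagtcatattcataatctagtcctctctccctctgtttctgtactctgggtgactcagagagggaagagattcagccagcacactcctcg
It holds 2 GC boxes and 30 CG dinucleotides.

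**Figure D4:**
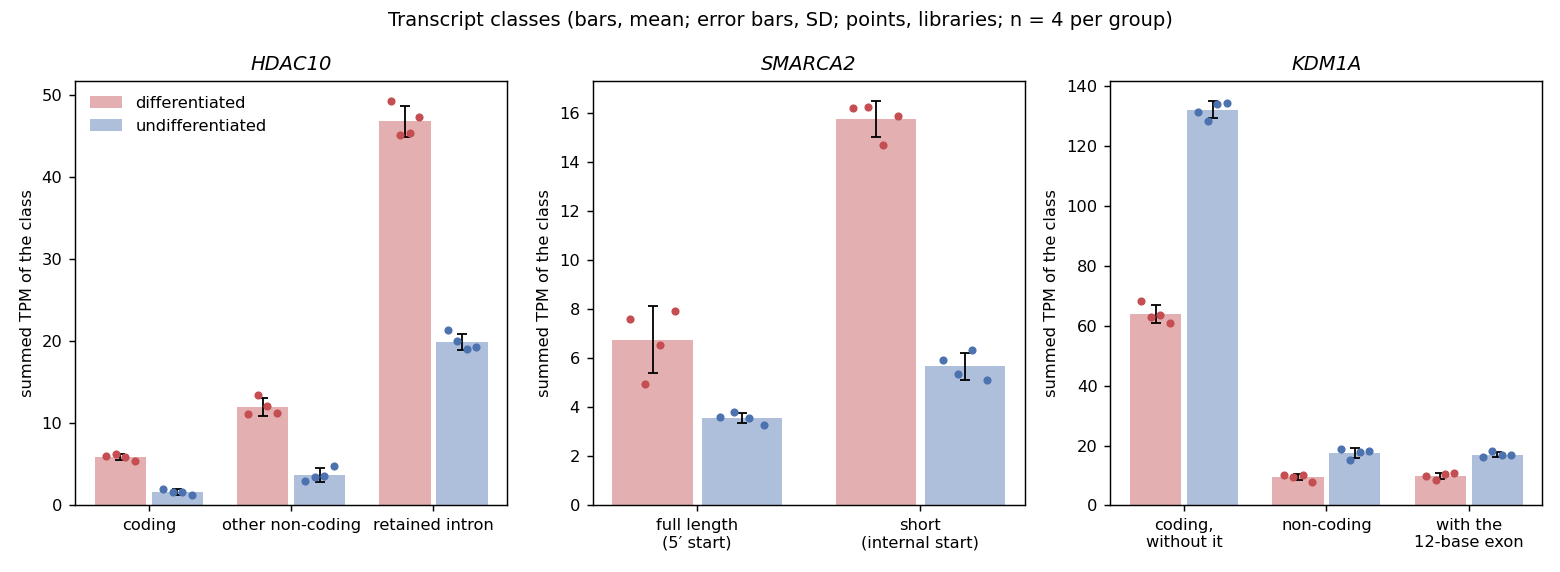
Summed TPM (y axis, from 0) of transcript classes of HDAC10, SMARCA2 and KDM1A in differentiated (red, left) and undifferentiated (blue, right) cells; bars are means, error bars SD and points the 4 libraries of each group. Retained-intron transcripts are the largest HDAC10 class in both groups, short transcripts the larger SMARCA2 class, and every KDM1A class is lower in differentiated cells.

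ATRX, a remodeller of heterochromatin that is mutated in some neuroblastomas, had 66.3, 49.3, 52.0 and 62.1 TPM in differentiated libraries, against 64.8, 71.4, 69.7 and 66.4 TPM in undifferentiated ones. The groups overlapped through differentiated replicate 21 and the gene was not called (log2 fold change -0.25 ± 0.10 (SE), limma adjusted p = 0.0566). It was called lower in 5 of 16 alternatives, among them both other scalings and the fit without differentiated replicate 21 (limma adjusted p from 0.00103 to 0.195). EP300, an acetyltransferase and coactivator, had 11.1, 6.07, 8.04 and 9.65 TPM in differentiated libraries, against 7.91, 8.24, 7.87 and 7.81 TPM in undifferentiated ones. Its close relative CREBBP had 34.0, 14.6, 23.5 and 31.9 TPM in differentiated libraries, against 29.5, 25.9, 25.3 and 26.9 TPM in undifferentiated ones. Both spread widely in the differentiated group with replicate 22 lowest, both overlapped, and neither was called (log2 fold changes 0.09 ± 0.15 and -0.11 ± 0.24 (SE), limma adjusted p = 0.662 and 0.722). Without replicate 22 EP300 was at 0.23 and CREBBP at 0.13, both uncalled. ARID1A and ARID1B, alternative DNA-binding subunits of SWI/SNF, averaged 44.4 and 23.2 TPM in differentiated cells and 44.4 and 22.6 TPM in undifferentiated cells (log2 fold changes -0.01 ± 0.10 and 0.02 ± 0.10 (SE); 0.09 and 0.12 without replicate 22). CHD5, a neuronal remodeller from a region often deleted in neuroblastoma, was under the filter and was not tested. It had 0.811, 0.704, 0.946 and 0.810 TPM in differentiated libraries, against 0.579, 0.476, 0.507 and 0.255 TPM in undifferentiated ones, low throughout and without overlap. In the fit without a filter its log2 fold change was 0.33 (limma adjusted p = 0.0276).

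Of 40 tested partners among SWI/SNF subunits, other remodellers and acetyltransferases, 7 rose and 14 fell, beside 33.9% and 17.4% of all tested genes. The partners' median change was -0.15 (log2). SMARCD3 (BAF60C), a SWI/SNF subunit of heart, muscle and neurons, averaged 68.2 ± 1.82 TPM in differentiated and 17.4 ± 0.897 TPM in undifferentiated cells (log2 fold change 1.91, limma adjusted p = 3.33e-08), a rise larger than that of any of the 50 regulators. Of the SWI/SNF subunits in this list, only SMARCD3 and PHF10 were called higher. SMARCC1, SMARCD2, ARID2, BRD7, BRD9, ACTL6B, DPF1, BCL7A and BCL11A were called lower. The calls of ARID2, BRD9 and BRD7 held in 5, 6 and 10 of 16 alternatives. SMARCB1, SMARCC2, SMARCD1, SMARCE1, PBRM1, ACTL6A, DPF2, SS18 and SS18L1 were not called. ACTL6B and DPF1 fell by 0.47 and 0.41 on the log2 scale (limma adjusted p = 0.00156 and 0.00447). DPF3, not tested, averaged 0.434 ± 0.129 TPM in differentiated and 1.24 ± 0.0978 TPM in undifferentiated cells. PHF10 rose by 0.17 (log2, limma adjusted p = 0.0157), a call that held in 13 of 16 alternatives. BCL11A, a zinc finger subunit, averaged 4.30 ± 0.719 TPM in differentiated and 13.8 ± 1.17 TPM in undifferentiated cells (log2 fold change -1.49, limma adjusted p = 1.20e-05), and BCL7A fell by 0.70 on the log2 scale (limma adjusted p = 0.000641). KAT6B, a lysine acetyltransferase, averaged 27.5 ± 5.97 TPM in differentiated and 16.6 ± 0.596 TPM in undifferentiated cells (log2 fold change 0.67, limma adjusted p = 0.00437).

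Ratios between related genes within a library do not change when a library is multiplied by 1 factor, though quantile normalization can change them, and 10 pairs were compared. In 7 of them the groups lay fully apart, which gives p = 0.0286 in an exact two-sided permutation test, the smallest that 4 against 4 allows, and 0.0408 after Benjamini-Hochberg adjustment over the 10 pairs. The pairs were chosen with earlier results of these data known. In SMARCA2/SMARCA4, RBBP7/RBBP4 and HDAC2/HDAC1 both genes were already called, in opposite directions. These p-values are therefore no support beyond the gene tests, and the share of separated ratios over all gene pairs was not computed. The largest difference was in SMARCA2 over SMARCA4, whose log2 ratio was -1.66 ± 0.24 in differentiated cells and -3.27 ± 0.05 in undifferentiated cells (SD, n = 4 each), a difference of 1.61. RBBP7 over RBBP4 was -0.29 ± 0.21 in differentiated cells and -1.27 ± 0.02 in undifferentiated cells, a difference of 0.98. In differentiated replicates 21 to 24 it was -0.47, 0.00, -0.26 and -0.42. CBX7 over CBX2 and KDM5B over KDM5A were higher in differentiated cells by 0.72 and 0.51. HDAC2 over HDAC1 was 1.91 ± 0.18 in differentiated cells and 2.43 ± 0.04 in undifferentiated cells, and EZH1 over EZH2 was -2.40 ± 0.36 in differentiated cells and -1.89 ± 0.14 in undifferentiated cells. Both differed by -0.51, and KDM6B over KDM6A differed by -0.63. The EZH1 to EZH2 difference was -0.13 with only protein-coding transcripts summed, and its groups were then no longer apart (exact permutation p = 0.743). Without replicate 22 it was -0.33, the smallest with any 1 library left out. EP300 over CREBBP, ARID1B over ARID1A and DNMT3B over DNMT3A overlapped, with differences of 0.22, 0.03 and -0.15 (exact permutation p = 0.114, 0.229 and 0.314). With 1 library left out, EP300 over CREBBP ran from 0.13, without replicate 22, to 0.28. DNMT3B over DNMT3A ran from -0.27, without replicate 22, to -0.06, without differentiated replicate 21.

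**Figure D5:**
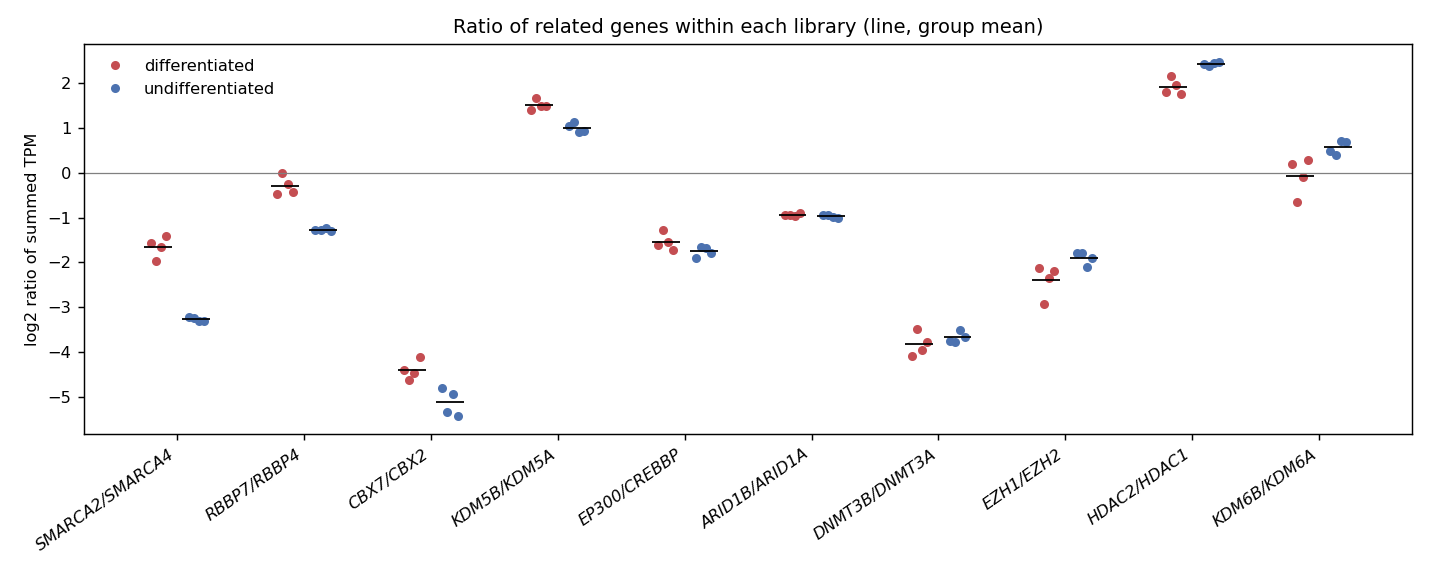
Log2 ratio of the summed TPM of related genes within each library (y axis) for 10 pairs, differentiated (red, left) and undifferentiated (blue, right), with the group mean as a line. The groups lie apart in 7 pairs, most widely in SMARCA2 over SMARCA4, and overlap for EP300/CREBBP, ARID1B/ARID1A and DNMT3B/DNMT3A.

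The share of each transcript in its gene was tested for 113 transcripts of 42 regulators, and 2 were called at an adjusted p under 0.05 and a difference of 10 percentage points, beside 2.4% of 22951 transcripts tested in all. The share of the coding transcript HDAC5-204 in HDAC5 was 50.6, 41.8, 43.9 and 49.01% in the differentiated libraries, against 62.1, 63.5, 65.1 and 59.8% in the undifferentiated libraries. The groups did not overlap (difference -16.3 percentage points, limma adjusted p = 0.0180). The transcript's own level was 6.03 ± 0.313 TPM in differentiated cells and 6.02 ± 0.483 TPM in undifferentiated cells, so the rise of HDAC5 lay in its other transcripts. The share of the retained-intron transcript CBX6-203 in CBX6 was 9.08, 3.34, 6.81 and 9.82% in the differentiated libraries, against 17.8, 20.0, 16.6 and 16.0% in the undifferentiated libraries (difference -10.3 percentage points, limma adjusted p = 0.0332). Neither share was called in the lane 8 libraries alone, with a gene level of 10 TPM in place of 5, without differentiated replicate 23 or without undifferentiated replicate 17, 18 or 19. CBX6-203 was also not called without differentiated replicate 22 or undifferentiated replicate 20. Coding transcripts held a median of 81.7% of a regulator's TPM, but under 50% in 9 genes: DNMT1, EZH1, RBBP4, HDAC3, HDAC6, HDAC7, HDAC10, KDM6B and SMARCA4. In RBBP7 coding transcripts averaged 123 ± 3.73 TPM in differentiated and 89.0 ± 2.65 TPM in undifferentiated cells, and in RBBP4 60.9 ± 6.48 TPM in differentiated and 77.1 ± 2.89 TPM in undifferentiated cells, so the opposite directions of the pair held among coding transcripts in mean TPM. For EZH2 the coding class averaged 61.9 ± 3.63 TPM in differentiated and 57.2 ± 0.955 TPM in undifferentiated cells, the retained-intron class 26.8 ± 4.15 TPM in differentiated and 20.0 ± 2.72 TPM in undifferentiated cells and other non-coding transcripts 31.0 ± 3.32 TPM in differentiated and 21.9 ± 1.08 TPM in undifferentiated cells. Reads are divided among transcripts by estimation, so these classes are less certain than the gene sums.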

How the data were processed

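RNA of 8 SH-SY5Y libraries was sequenced after a stranded mRNA preparation, per the labels' protocols, and the cell type label gave the groups (4 differentiated, 4 undifferentiated). The authors deposited TPM values per Ensembl transcript (194993 transcripts). Per the submitters' processing notes, FastQC 0.11.2, Salmon and build GRCh37 were used; for settings, annotation release and use of strand, the answer is not given in the sources used here. TPM keeps no depth, and Salmon divides reads between similar sequences, so copies and overlapping genes are uncertain; 22 of the 50 regulators overlap another gene of 1 TPM or more.

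Transcripts were matched to GENCODE 29 (GRCh38) by identifier without version; 180930 (92.8%) matched, holding 93.2% to 95.0% of a library's TPM, and were summed per gene. The test was limma 3.58.1 (R 4.3.3; lmFit, eBayes with trend) for genes averaging at least 1 TPM, on log2(TPM+1), two-sided, with Benjamini-Hochberg adjustment over 17077 genes. Transcript shares were tested with limma on their arcsine square root, in genes of 5 TPM or more in each group, for mean shares of 10% to 90%. Ratios were tested by exact permutation (scipy 1.17.1). Promoters came from RefSeq (GRCh38.p14). The steps were tested on simulated data. The alternatives, 16 for gene tests, were a pseudocount of 0.1, no filter, a mean of 5 TPM, median-of-ratios scaling, quantile normalization, no trend, protein-coding transcripts only, lane 8 only and each library left out. Lane 7 held undifferentiated replicates 17 and 18, and lane 8 the other 6.

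The members, lists and tests were chosen with earlier results of these data known. Values in every library were given for 19 regulators chosen by name and for others that were called, did not overlap and changed by 0.5 or more (log2); RBBP4 and HDAC4 replicate 22 were added after their values were seen. Up to 4 called genes were named per partner or marker list. ACTL6B, DPF1, DPF3 and PHF10 were added to the remodeller and acetyltransferase list after their values were seen. The other SWI/SNF subunits listed by call beside them were also named outside this rule. UHRF1, PCGF2, EPOP and PECAM1 were listed but had no summed level and were not analysed here.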

Additional observations from a re-analysis of the deposited data

Results flagged for a closer look

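In 3 of the 100 sets of 4 libraries examined (50 regulators in 2 groups), 1 library stood apart from the others by Dixon's test. Chance gives about 1 in 20 per set. The sets share the same 8 libraries and are not independent, so this count cannot decide whether chance gave the 3. Replicate 22 was the lowest differentiated library in 36 of the 49 tested regulators. HDAC4 was 4.62 TPM in differentiated replicate 22, the lowest, with the next library at 9.74 TPM. BMI1 was 117.8 TPM in differentiated replicate 21, the highest, with the next at 100.1 TPM. PHC1 was 35.9 TPM in undifferentiated replicate 17, the highest, with the next at 31.8 TPM.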

How the results depend on the processing

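Among refits of the regulators' fold changes under the alternatives, 708 stayed on the same side of the threshold, 35 gained a call and 37 lost one. CBX8 turned to -0.15 (log2) and was called after quantile normalization. Of the 708, 34 had the other sign, all of genes not called in either fit (15 genes, -0.19 to 0.13). The counts of regulators called higher and lower (11 and 12) became 10 and 20 after median-of-ratios scaling, 7 and 24 after quantile normalization, and 10 and 7 in lane 8 alone, where DNMT3A, HDAC1, KDM2B, KDM5A, SMARCA4 and SUZ12 were lost and none was gained. With each library left out they ran from 10 to 13 and from 9 to 19, with 19 lower without differentiated replicate 21. Without replicate 22, 22 of the 23 calls were shared, DNMT1, HDAC4, KMT2A, PHC1 and SIRT1 were gained and KDM2B was lost. Over all genes the number lower (2970) was 5098 after quantile normalization and 1886 in lane 8, and 2507 to 3379 with a library left out.

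Partner counts moved in the same way. Lower DNA methylation partners (3) were 5 under either other scaling, lower Polycomb partners (3) were 7 (median-of-ratios) and 8 (quantile), lower deacetylase partners (6) were 10 (median-of-ratios) and 3 (lane 8), and higher ones (5) were 3 in lane 8 and 4 to 8 with a library left out. Lower histone methylation partners (5) were 12, 15 and 2 under median-of-ratios, quantile and lane 8, and 3 to 6 with a library left out; higher ones (3) were 2 to 5. Remodeller and acetyltransferase partners (7 higher, 14 lower) were 3 and 23 under median-of-ratios, 3 and 22 under quantile, and 4 and 7 in lane 8. With protein-coding transcripts alone, the ratio differences (log2) were -0.13 for EZH1/EZH2, 1.89 for SMARCA2/SMARCA4, 0.11 for ARID1B/ARID1A and 0.62 for KDM5B/KDM5A. The 2 called transcript shares were 0 at a gene level of 10 TPM (19 at an unadjusted p under 0.05 in limma), 0 in lane 8 (11 likewise), and 0 to 3 with a library left out. Scaling and lane 8 alone change the centre and the number of libraries; beyond that the cause was not tested. No paired analysis was possible because the groups share no replicate numbers. Depth is unknown, so what it limits cannot be stated.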

Other observations

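Some transcripts of single regulators, chosen after their values were seen, stood beside the gene sums. DNMT3A-203 averaged 21.1 ± 1.595 TPM in differentiated and 31.6 ± 0.568 TPM in undifferentiated cells, whereas DNMT3A-202, a low transcript, averaged 2.65 ± 1.26 TPM in differentiated and 0.674 ± 0.119 TPM in undifferentiated cells, higher in differentiated cells while the gene was lower. HDAC9 has transcripts that end before the catalytic domain and a long one that reaches it. HDAC9-202, which ends early, averaged 12.6 ± 3.30 TPM in differentiated and 21.3 ± 0.539 TPM in undifferentiated cells. HDAC9-203, which ends at the same place, averaged 14.3 ± 3.09 TPM in differentiated and 16.8 ± 0.893 TPM in undifferentiated cells. HDAC9-204, which runs on to the far end of the gene, averaged 4.85 ± 0.744 TPM in differentiated and 7.01 ± 0.389 TPM in undifferentiated cells. In RBBP4 the retained-intron class averaged 61.4 ± 13.1 TPM in differentiated and 95.3 ± 1.47 TPM in undifferentiated cells, and in RBBP7 39.9 ± 7.87 TPM in differentiated and 20.2 ± 1.38 TPM in undifferentiated cells. HDAC10-201, its main coding transcript, averaged 5.53 ± 0.477 TPM in differentiated and 1.24 ± 0.258 TPM in undifferentiated cells. These are means ± SD of 4 libraries per group, given as values with no test.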
